A study of Mus musculus with 2 samples.

Results

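A set of 10 genes of leukocyte adhesion was followed here in single cells of the mouse heart after sham surgery or transverse aortic constriction (TAC), an operation that narrows the aortic arch and puts the left ventricle under pressure load. They form a fixed list that was chosen with earlier results of these data known. The 5 integrin chains Itgal, Itgax, Itga4, Itgb1 and Itgb2 and the selectin ligand gene Selplg were described in leukocyte barcodes. The 4 genes Icam1, Icam2, Vcam1 and Selp were described in endothelial and fibroblast barcodes. All 10 were found among the 31053 genes listed for each library.

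Leukocytes leave the blood in steps. Selectins on activated endothelium, among them P-selectin (Selp), catch rolling cells through PSGL-1, the product of Selplg. Integrins on the leukocyte then bind endothelial ligands of the immunoglobulin family: LFA-1 (Itgal with Itgb2) binds ICAM-1 and ICAM-2, VLA-4 (Itga4 with Itgb1) binds VCAM-1, and CD11c/CD18 (Itgax with Itgb2) binds ICAM-1 among other ligands. Itgb2 is thus the shared beta chain of the leukocyte integrins, while Itgb1 pairs with many alpha chains in most tissues.

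Cells stained for CD45 were sorted from digested hearts of wild-type C57BL/6 mice of 10 weeks. There were 6 mice in the sham group and 6 in the TAC group, with 1 single-cell library per group. The labels do not say how long after surgery the hearts were taken, and barcodes cannot be traced to a mouse. With 1 library per group no test across animals was possible, and surgery, library and depth cannot be told apart. Values are counts of unique molecular identifiers (UMIs), each a captured transcript, summed over the barcodes of a cell class and given as CPM, the class's UMIs of a gene per 1e+06 UMIs of that class. The 95% intervals (exact Poisson for a level, exact conditional binomial for a ratio) cover counting error only. A gene was called higher or lower at 1.5-fold or more, with at least 20 UMIs over both libraries, and a call is a statement about these 2 libraries.

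The libraries differed in quality before any gene was compared. The sham library held 11941 barcodes, of which 7590 had over 10% mitochondrial UMIs and 4169 were kept. The TAC library held 7975, with 2246 over the limit and 5601 kept. Kept barcodes had a median of 9536 UMIs in sham and 13892 in TAC, and 7 of the kept barcodes occurred in both libraries. The 7 classes with at least 50 barcodes in each library were compared, with the sham number first: macrophage-like (2004 and 2696), monocyte-like (67 and 381), T-like (150 and 299), NK-like (53 and 75), B-like (167 and 58), endothelial-like (107 and 407) and fibroblast-like (212 and 248). Neutrophil-like barcodes numbered 19 in sham and 1167 in TAC and were described without a comparison. A further 5 clusters that no marker rule could name held 1327 sham barcodes (31.8%) and 201 TAC barcodes (3.59%). The CD45 label held for the leukocyte classes, in which Ptprc, the gene of CD45, was found in at least 91.2% of barcodes. It was found in 36.4% of sham and 19.2% of TAC endothelial-like barcodes, and in 18.4% and 16.9% of fibroblast-like barcodes.

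Macrophage RNA was present in every other leukocyte class. C1qa, C1qb and C1qc, complement genes made by macrophages, summed to 11296 CPM in sham T-like barcodes and 11966 CPM in TAC ones, where macrophages had 16396 and 20125 CPM. Barcodes with at least 20 C1q UMIs per 10000, called C1q-rich below, made up 94% of sham and 71.2% of TAC T-like barcodes, 94.3% and 50.7% of NK-like, 98.8% and 72.4% of B-like, 50.7% and 41.2% of monocyte-like, 35.5% and 9.34% of endothelial-like, and 13.7% and 8.87% of fibroblast-like barcodes. The sham lymphocyte classes therefore had almost no C1q-poor barcodes to compare with. Whether 2 cells shared a droplet or free RNA entered it was not tested.

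Itgal, the alpha chain of LFA-1 (chr7:127296260-127335138 in GRCm38, plus strand), showed the largest ratio among the integrin chains. In macrophages it stood at 3.03 CPM (2.32 to 3.89, 62 UMIs) in sham against 20.7 CPM (19.4 to 22.1, 892 UMIs) in TAC, which is 6.84-fold higher (5.28 to 8.99). Even so, macrophages stayed low in the order of classes: monocytes carried 165 CPM in sham against 141 CPM in TAC, a ratio whose interval includes no difference (0.71 to 1.04). Thinned to 1000 UMIs per barcode, 0.3% of sham macrophages (0.11 to 0.651) and 1.89% of TAC macrophages (1.41 to 2.48) had an Itgal UMI, while fibroblasts, which should lack the gene, had it in 0 of 211 and 0 of 247 barcodes (a count of 0, taken as 3 barcodes at most, allows shares of up to 1.42% and 1.21%). Unthinned, the macrophage shares were 2.25% and 18.6%, and fibroblasts had an Itgal UMI in 5 of 212 and 7 of 248 barcodes. The fibroblast levels were 4.24 CPM (1.94 to 8.05) in sham and 1.85 CPM (0.798 to 3.64) in TAC. In sham the macrophage level was thus not above that of a class that should lack the gene.

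Macrophages of the 2 libraries lay in different clusters, and Itgal differed between these clusters more than within 3 of the 4 that both libraries filled. Clusters 0, 1 and 4 held 89.5% of sham macrophages and 8.2% of TAC macrophages. Clusters 17, 18, 19 and 22 held 79% of TAC macrophages and 2.74% of sham macrophages. In clusters 0, 1 and 4 Itgal was 1.86, 1.99 and 5.54 CPM in sham against 2.85, 0 and 6.26 CPM in TAC, with no more than 3 TAC UMIs in any of them. In the clusters made up mostly of TAC barcodes it ranged from 14.5 to 28.8 CPM. Cluster 5, led by the cell-cycle genes Top2a and Mki67, held 156 sham and 345 TAC barcodes and gave 5.56 CPM in sham against 34.7 CPM in TAC (6.23-fold, 3.66 to 11.5). S100a8, a neutrophil gene, was 57.2 CPM in sham against 528 CPM in TAC macrophages, and the 32 neutrophil markers summed to 261 and 1840 CPM. In TAC neutrophil-like barcodes S100a8 was 54698 CPM and Itgal 58.8 CPM. The part of neutrophil RNA in the macrophage Itgal value was not tested.

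**Figure D1:**
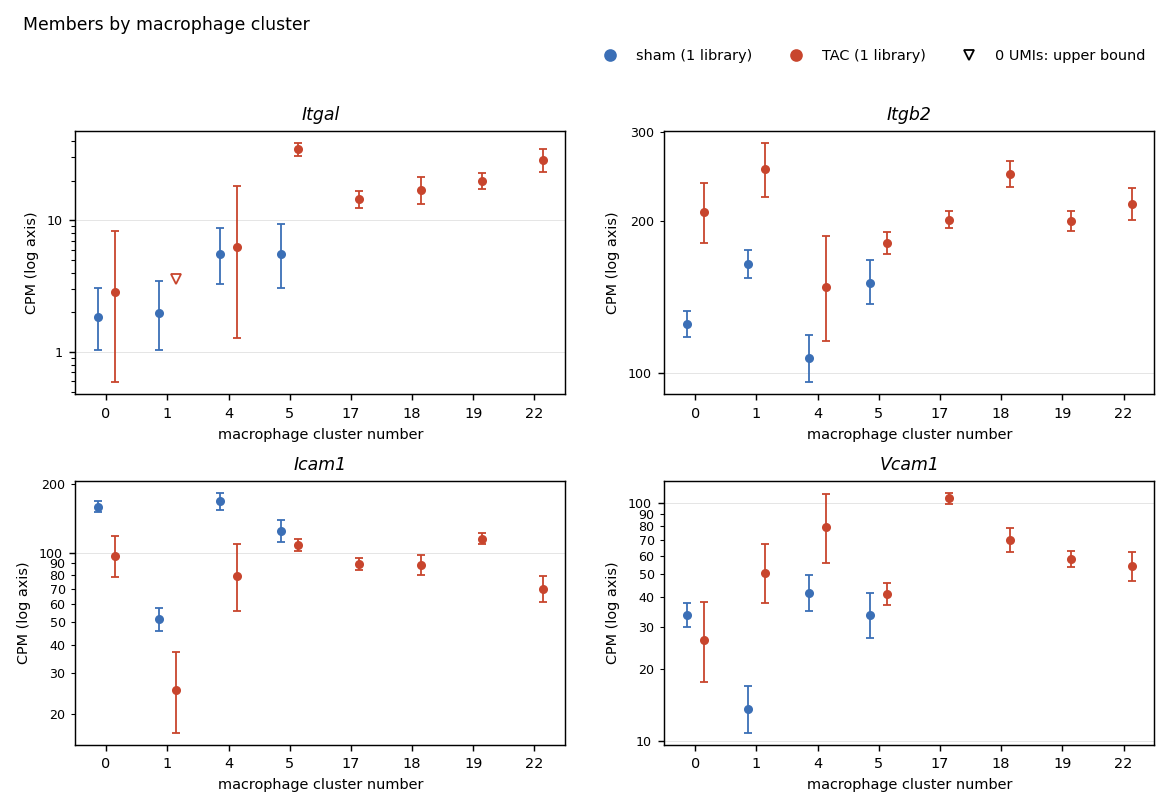
Levels of Itgal, Itgb2, Icam1 and Vcam1 in CPM (log axis) in each macrophage cluster with at least 50 barcodes in a library, sham in blue and TAC in red, bars giving 95% Poisson intervals and open triangles the upper bound where no UMI was found. Itgal is between 14.5 and 34.7 CPM in clusters 5, 17, 18, 19 and 22 of TAC and under 7 CPM elsewhere, while Icam1 is lower in TAC in clusters 0, 1 and 4.

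In TAC macrophages 4 of the 10 genes were called higher (Itgal, Itgax, Vcam1 and Icam2) and 0 lower, where 13.2% of 12643 measured genes were called higher and 22.5% lower. All 10 passed the minimum of 20 UMIs in this class. Itgax, the gene of CD11c (chr7:128129547-128150657, plus strand), was 5.92 CPM in sham against 13.3 CPM in TAC macrophages (2.25-fold, 1.85 to 2.77). With the mitochondrial limit at 5% the direction turned, at a log2 ratio of -2.53. Within clusters that both libraries filled it was 18.3 and 17.7 CPM in cluster 5 and 9.86 and 18.8 CPM in cluster 4, and in cluster 19 the 23 sham barcodes had 97.3 CPM from 25 UMIs, where TAC had 25.8 CPM. An unnamed cluster led by Cd209a and Mmp12 had more of it than macrophages, at 75.5 CPM in sham against 61.3 CPM in TAC, where it did not pass 1.5-fold. Between macrophage clusters of TAC it ranged from 0 to 27.6 CPM, highest in cluster 22, which is led by Cd72 and contains H2-Eb1 among its leading genes.

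The shared beta chain Itgb2 (chr10:77530252-77565708, plus strand) reached 138 CPM in sham against 203 CPM in TAC macrophages, 1.47-fold higher (1.41 to 1.54) and just under the limit for a call. Unlike Itgal, it was higher in TAC within each of the 4 clusters that both libraries filled: 125 and 208 CPM in cluster 0, 164 and 253 in cluster 1, 107 and 148 in cluster 4, and 151 and 181 in cluster 5. The first 2 of these passed 1.5-fold.

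Itga4, the VLA-4 alpha chain (chr2:79255426-79333123, plus strand), was nearly equal between libraries over all macrophages, at 76.1 CPM in sham against 73.1 CPM in TAC. Within clusters it was lower in TAC: 64.8 and 26.6 CPM in cluster 0 (2.44-fold lower), 80.1 and 53.9 in cluster 1 (1.49-fold), 83.8 and 31.3 in cluster 4 (2.68-fold) and 93.8 and 78.2 in cluster 5 (1.2-fold). Among the clusters filled mostly by TAC, 17 and 22 had 101 and 95.2 CPM and 18 and 19 had 35 and 48.7 CPM. Itgb1 (chr8:128685654-128733200, plus strand), at 346 and 298 CPM, and Selplg (chr5:113818536-113832644, minus strand), at 122 and 136 CPM, differed by less than 1.5-fold.

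Monocyte-like barcodes had high Itgal, Itga4 and Itgb2 in both libraries. Itga4 was 236 CPM in sham against 227 CPM in TAC. Itgb2 was 232 and 315 CPM (1.36-fold, 1.16 to 1.59), and Selplg 173 and 213 CPM. Of the 10 genes 1 was called higher and 2 lower, against 18.5% and 18.9% of 9594 genes. The higher call was Itgax, with 9.29 CPM from 7 sham UMIs and 19 CPM from 150 TAC UMIs, and its interval reached below 1 (0.969 to 5.18). The lower calls were Icam1, at 86.3 and 51.2 CPM (72.7 and 50 CPM without the fullest barcode of each library, which is no call), and Selp, which rested on 3 sham UMIs and whose interval spanned no difference. Ly6c2, a gene of classical monocytes, was 717 CPM in sham against 1900 CPM in TAC in this class, so this gene differed within the class as well. Neutrophil RNA was higher in TAC there too: the neutrophil markers summed to 753 CPM in sham against 16629 CPM in TAC, with 24 of 29 measured markers called higher, and S100a8 was 17.3 against 6820 CPM. Its part in the monocyte-like values was not tested.

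In T-like barcodes 4 of the 6 leukocyte genes were called higher in TAC, and 5 of the 9 measured members were, against 19.7% of 10526 genes. The additional member was Vcam1, at 42.9 and 69.2 CPM (1.61-fold, 1.3 to 2.01), which went with C1q, as described below. None of the 9 was called lower, against 18.9%. Itgal was 44.6 CPM in sham against 104 CPM in TAC (2.33-fold, 1.91 to 2.88), Itgb2 128 and 254 CPM (1.99-fold, 1.76 to 2.25), Itga4 105 and 180 CPM (1.7-fold, 1.49 to 1.95) and Itgax 10.2 and 16.5 CPM (1.62-fold, 1.04 to 2.6). Selplg, at 175 and 259 CPM, reached 1.48-fold, and Itgb1, at 276 and 334 CPM, 1.21-fold.

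NK-like barcodes showed the same 4 genes past the limit: Itgal at 68 and 143 CPM (2.1-fold, 1.57 to 2.84), Itgax at 29.3 and 70.5 CPM (2.4-fold, 1.55 to 3.86), Itgb2 at 193 and 328 CPM (1.69-fold, 1.42 to 2.03) and Itga4 at 136 and 225 CPM (1.66-fold, 1.34 to 2.05). With Vcam1 and Icam2, 6 of 9 measured members were called higher and 0 lower, against 24.7% and 20.5% of 8078 genes. Icam2 rested on 7 sham and 33 TAC UMIs, with an interval from 1 to 6.17. Vcam1 was 49.2 and 82.5 CPM (1.68-fold, 1.18 to 2.42) and went with C1q, as described below. Of the compared classes, NK-like barcodes had the highest Itgax level in both libraries.

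Neutrophil RNA was higher in the TAC lymphocyte classes, and neutrophils carry Itgb2, Selplg and Itgal. The neutrophil markers summed to 1560 and 6550 CPM in T-like, 2080 and 5880 CPM in NK-like and 1370 and 12839 CPM in B-like barcodes. Their part in these ratios was not tested.

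The lymphocyte classes of TAC also held more of their own marker RNA. The 25 T markers summed to 2860 CPM in sham against 5020 CPM in TAC T-like barcodes, a ratio of 1.76, and the 22 NK markers to 9140 and 24010 CPM in NK-like barcodes, a ratio of 2.63. Set against those markers, the integrin ratios were smaller or turned. Per 1000 T marker UMIs, Itgal was 15.6 in sham and 20.7 in TAC (1.33-fold, 1.08 to 1.64), Itgb2 44.6 and 50.6 (1.13-fold, 1 to 1.28) and Itga4 36.9 and 35.7 (0.969-fold, 0.847 to 1.11). Per 1000 NK marker UMIs, Itgal was 7.44 and 5.94 (0.798-fold, 0.598 to 1.08), Itgb2 21.2 and 13.6 (0.645-fold, 0.541 to 0.771) and Itga4 14.9 and 9.38 (0.63-fold, 0.511 to 0.782). The marker genes can themselves respond to surgery, and this was not tested.

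Among C1q-rich T-like barcodes alone, 141 in sham and 213 in TAC, the CPM ratios were close to those of the whole class: 2.21-fold for Itgal (41.9 and 92.6 CPM), 2.01-fold for Itgb2 (125 and 250 CPM) and 1.51-fold for Itga4 (106 and 160 CPM). The make-up of the class also differed. Barcodes with a UMI of Cd8a, Cd8b1 or Gzmb, genes of cytotoxic T cells, made up 44.7% of sham and 83.6% of TAC T-like barcodes. Among them Itgal was 45 CPM in sham against 112 CPM in TAC (2.49-fold, 1.87 to 3.37), and Itgb2 139 and 269 CPM. Barcodes without these genes, 83 and 49 in number, had Itgal at 44.2 and 53.1 CPM and Itgb2 at 118 and 157 CPM, too few for a comparison by the limit of 50 barcodes.

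B-like barcodes had 1 leukocyte gene past the limit, Itgal, at 13.4 CPM (34 UMIs) in sham against 33.4 CPM (35 UMIs) in TAC (2.5-fold, 1.51 to 4.13). Their 25 markers had a CPM ratio of 1.6, and per 1000 B marker UMIs Itgal was 1.65 in sham and 2.57 in TAC, with an interval from 0.944 to 2.58. Itga4 was 122 and 116 CPM and Itgb2 120 and 151 CPM. Over the 9 measured members 2 were called higher (Itgal and Icam2) and 1 lower (Icam1), against 14.8% and 24.3% of 8746 genes.

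**Figure D2:**
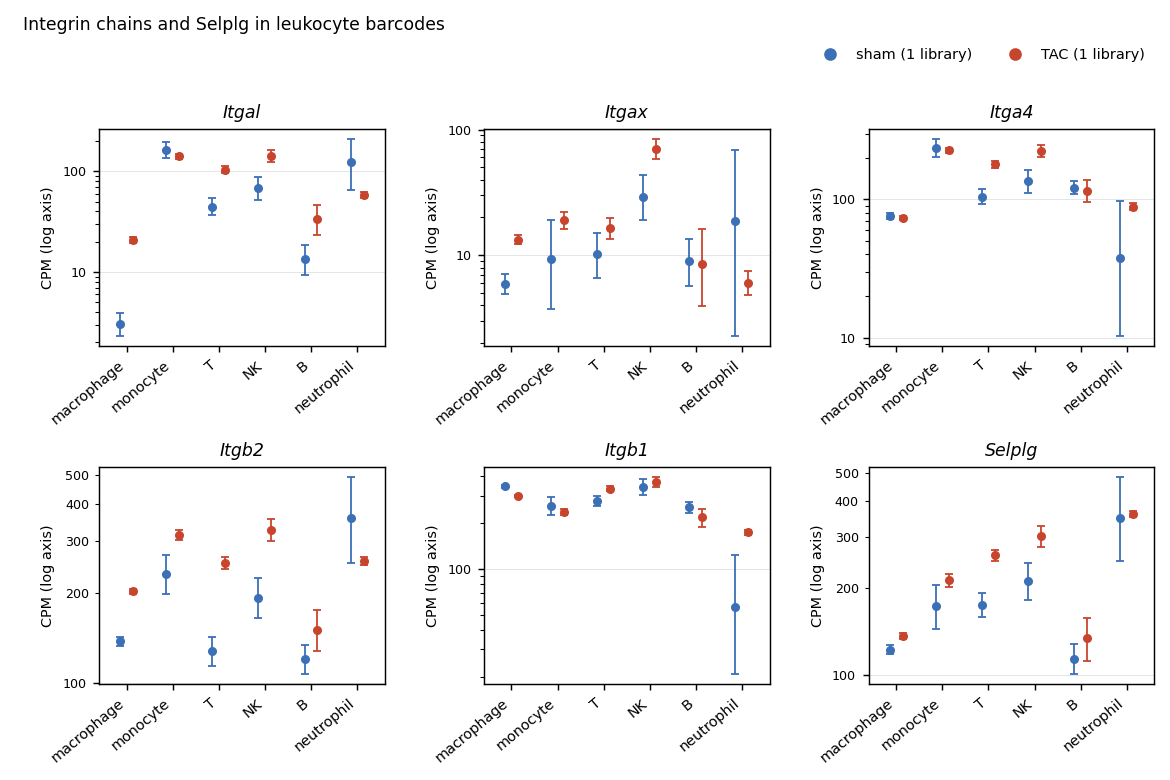
Levels of Itgal, Itgax, Itga4, Itgb2, Itgb1 and Selplg in CPM (log axes, which differ between panels) in 6 leukocyte classes, sham in blue and TAC in red, with 95% Poisson intervals. Macrophages have the lowest Itgal in both libraries, at 3.03 and 20.7 CPM, T-like and NK-like barcodes show higher Itgal, Itga4 and Itgb2 in TAC, and the sham neutrophil values rest on 19 barcodes.

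Over the 5 compared leukocyte classes, 12 of 30 pairs of gene and class were called higher in TAC and 0 lower, where between 13.2% and 24.7% of all measured genes of a class were called higher and between 18.9% and 24.3% lower. Of the 12, 8 lay in the T-like and NK-like classes. Itgb1 and Selplg were called in none of the 5, with Selplg between 1.11-fold and 1.48-fold higher. The count depended on which barcodes were admitted: with C1q-rich barcodes left out of classes other than macrophages, only macrophages could still be compared, and 2 of 6 pairs were called.

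Neutrophil-like barcodes could be described in TAC. Selplg was highest there of all classes, at 360 CPM (351 to 370), with an interval apart from that of NK-like barcodes (276 to 328). Itgb2 was 257 CPM, Itga4 88.8 CPM and Itgal 58.8 CPM. The 678 C1q-poor neutrophil-like barcodes had Selplg at 528 CPM and Itgal at 85.5 CPM, and the 489 C1q-rich ones had them at 280 and 46 CPM. Raising the mitochondrial limit to 25% admitted 346 sham and 1351 TAC neutrophil-like barcodes. Between these, Selplg was 241 and 370 CPM (1.53-fold, 1.42 to 1.66), Itgb2 185 and 256 CPM (1.39-fold), and Itgal 70.7 and 61.2 CPM (0.865-fold, 0.745 to 1.01). In that set 237 of the 346 sham barcodes were C1q-rich, against 534 of 1351 in TAC, and S100a8 was 15141 and 53241 CPM.

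**Figure D3:**
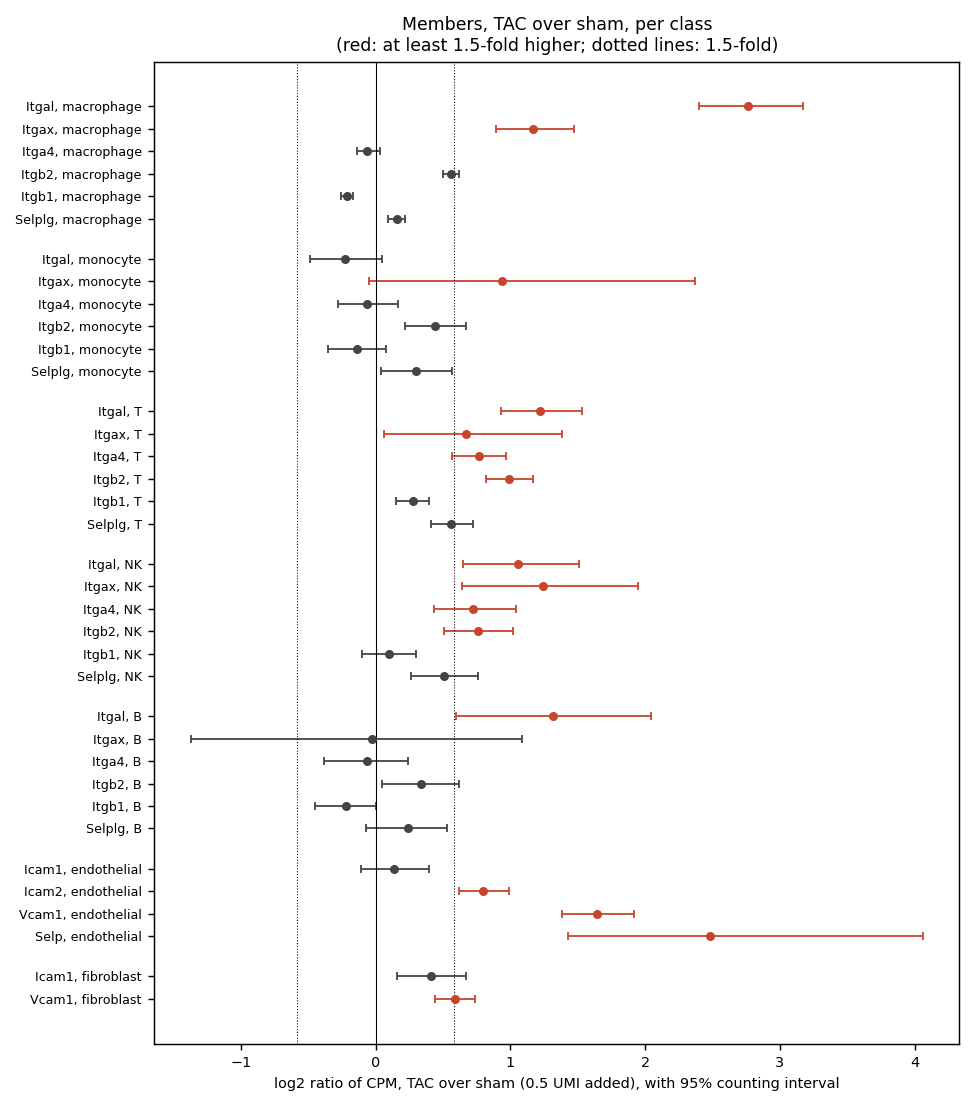
Log2 ratio of CPM, TAC over sham (0.5 UMI added to each count), for each gene and class with at least 20 UMIs, with 95% counting intervals, red points being at least 1.5-fold higher and dotted lines marking 1.5-fold. The 12 red leukocyte pairs lie mostly in the T and NK classes, and the 4 red ligand pairs are Icam2, Vcam1 and Selp in endothelium and Vcam1 in fibroblasts.

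On the side of the vessel wall, 4 of 6 measured pairs of ligand and class were called higher in TAC and 0 lower. Of all measured genes, 14.1% in the endothelial-like and 9.69% in the fibroblast-like class were called higher, and 17% and 19.2% lower. The fibroblast call, Vcam1, was 1.51-fold and held in 9 of 16 other settings, some of which could not change it. In endothelial-like barcodes 3 of 9 measured members were called higher and 0 lower, against 14.1% and 17% of 9936 genes. The defining genes of endothelium were present at like levels, Cdh5 at 761 and 673 CPM and Pecam1 at 600 and 626 CPM, and the 28 endothelial markers summed to 24900 CPM in sham against 33328 CPM in TAC.

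Vcam1, the VLA-4 ligand (chr3:116109949-116129688, minus strand), was 115 CPM (95.5 to 137, 123 UMIs) in sham against 359 CPM (340 to 379, 1309 UMIs) in TAC endothelial-like barcodes, 3.13-fold higher (2.6 to 3.79). One TAC barcode carried 171 of its UMIs, and without the fullest barcode of each library the levels were 101 and 317 CPM. Thinned to 1000 UMIs, 10.3% of sham barcodes (5.24 to 17.7) and 18.8% of TAC barcodes (15.1 to 22.9) had a Vcam1 UMI, with overlapping intervals. Unthinned, the shares were 31.8% and 39.3%. T-like barcodes, which are not known to use the gene, had one in 2.67% and 5.02%.

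The level of Vcam1 depended on the kind of endothelial barcode. Vwf marks larger vessels and veins and Npr3 the endocardium. Barcodes with a UMI of either, 23 in sham and 56 in TAC, had 357 and 714 CPM, a comparison below the limit of 50 barcodes. The C1q-poor ones among them, 18 and 47, had 415 CPM (318 to 532) and 532 CPM (472 to 598), with overlapping intervals. Those with neither, 84 and 351, had 50.8 and 261 CPM (5.13-fold, 3.77 to 7.15). C1q-poor endothelial-like barcodes gave 145 and 337 CPM (2.33-fold, 1.86 to 2.94), and C1q-poor barcodes without Vwf and Npr3 51.2 and 292 CPM (5.7-fold, 3.73 to 9.15). That last sham level rested on 22 UMIs, 15 of them in 1 barcode, and without the fullest barcode of each library the levels were 17.6 and 265 CPM. The group with Vwf or Npr3, the one with the higher level, was 21.5% of sham and 13.8% of TAC endothelial-like barcodes. Its make-up differed as well, since over all endothelial-like barcodes Vwf was 193 CPM in sham against 106 CPM in TAC and Npr3 145 against 5.21 CPM. The part of this difference in the values of the group was not tested.

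Icam2, a ligand of LFA-1 known for steady expression in endothelium (chr11:106377656-106388075, minus strand), marked the endothelial-like barcodes. It stood at 259 CPM in sham against 450 CPM in TAC, and at most 26.7 CPM in any compared leukocyte class. The difference was 1.74-fold (1.53 to 1.98), and the share of barcodes with a UMI after thinning was 26.2% (18.1 to 35.6) and 40.5% (35.7 to 45.5), against 81.3% and 87.5% unthinned. C1q-poor barcodes had 366 and 534 CPM, and their ratio of 1.46 (1.26 to 1.69) was no longer a call. Without the fullest barcode of each library they had 341 and 528 CPM, a ratio of 1.55, so this value lay close to the limit on either side.

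Icam1, the main ligand of LFA-1 (chr9:21015985-21028817, plus strand), was 156 CPM in sham against 172 CPM in TAC endothelial-like barcodes, a ratio of 1.1 with an interval from 0.929 to 1.32. A 1.5-fold difference lies outside that interval as far as counting goes. C1q-poor barcodes had 161 and 150 CPM. Barcodes with Vwf or Npr3 had more of it than the others, 214 and 309 CPM against 141 and 134 CPM. Single barcodes weighed on these values, with 32 of 93 C1q-poor sham UMIs in 1 barcode. In TAC, 1 barcode held 80 of 245 UMIs of the group with Vwf or Npr3. Without the fullest barcode of each library the class had 130 and 152 CPM, and C1q-poor barcodes 111 and 143 CPM (1.28-fold). Those with Vwf or Npr3 then had 189 and 223 CPM and the others 107 and 127 CPM. Among C1q-poor barcodes these were 204 and 182 CPM, and 62.7 and 126 CPM (2-fold).

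Selp, the gene of P-selectin (chr1:164115264-164150026, plus strand), was 5.6 CPM (2.06 to 12.2) in sham against 33.8 CPM (28.1 to 40.3) in TAC endothelial-like barcodes, 6.02-fold higher with a wide interval (2.69 to 16.7). It rested on few barcodes. Unthinned, the 6 sham UMIs came from 4 of 107 barcodes (3.74%, 1.03 to 9.3) and the 123 TAC UMIs from 18 of 407 (4.42%, 2.64 to 6.9). These shares did not differ beyond counting error, but depth was not matched, with a median of 8350 UMIs in sham and 6270 in TAC. The UMIs were 6 over 4 barcodes and 123 over 18. The fullest TAC barcode held 28 UMIs, and without the fullest barcode of each library the levels were 2.84 and 26.2 CPM. C1q-poor barcodes had 8.63 and 30.9 CPM, a smaller ratio of 3.58 (1.48 to 11.3). All 6 sham UMIs and 115 of the 123 TAC UMIs lay in barcodes with Vwf or Npr3, at 26.8 and 145 CPM, and 8 TAC UMIs in 1 other barcode.

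Platelets carry Selp too, and their markers were higher in TAC endothelial-like barcodes: the 13 platelet markers summed to 65.4 CPM in sham against 163 CPM in TAC, with Ppbp at 6.54 and 34.6 CPM and 5 of 6 measured markers called higher. By barcode, those with no platelet marker UMI held 118 of the 123 TAC UMIs, at 40.5 CPM, and all 6 sham UMIs, at 6.77 CPM. The 58 TAC barcodes with a platelet marker UMI had Selp at 6.81 CPM. By group, the barcodes with Vwf or Npr3, which held most Selp UMIs, had platelet markers at 103 CPM (sham) and 536 CPM (TAC), with such UMIs in 2 of 23 and 15 of 56 barcodes, and the others at 55.5 and 59.6 CPM, with such UMIs in 43 of 351 TAC barcodes. The part of platelet RNA in the Selp value of the group was not tested. Sele, the gene of E-selectin, another selectin of activated endothelium, had 0 UMIs in sham and 70 in 8 of 407 TAC barcodes (19.2 CPM), so that TAC was at least 6.86-fold higher when 3 UMIs over the class were taken as the sham limit. One TAC barcode held 29 of the 70, and without it the level was 11.3 CPM and the bound 3.98-fold.

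**Figure D4:**
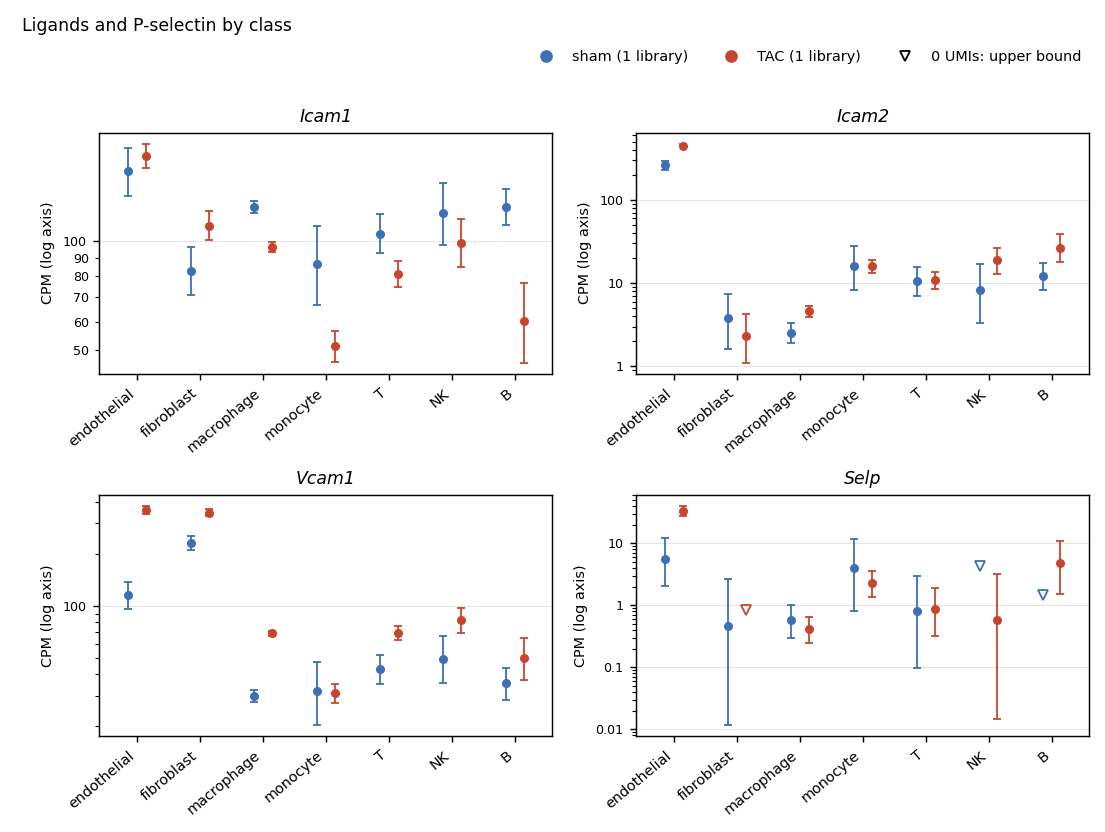
Levels of Icam1, Icam2, Vcam1 and Selp in CPM (log axes, which differ between panels) in the 7 compared classes, sham in blue and TAC in red, with 95% Poisson intervals and open triangles at the upper bound where no UMI was found. Endothelial Vcam1, Icam2 and Selp are higher in TAC, endothelial Icam1 overlaps between libraries, and Icam1 is lower in TAC monocyte-like and B-like barcodes.

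Over all endothelial-like barcodes the leukocyte genes were near-equal between libraries: Itgal was 16.8 and 16.5 CPM (7.55 and 13.6 CPM without the fullest barcodes, from 18 and 60 UMIs in all), Itga4 27.1 and 26.9 CPM, Itgb2 52.3 and 52.1 CPM and Selplg 44.8 and 39 CPM. In C1q-poor barcodes Selplg was 3.45 CPM from 2 sham UMIs against 17.4 CPM from 49 TAC UMIs (5.04-fold, 1.32 to 42.8), where S100a8 was 6.91 and 1010 CPM. The part of neutrophil RNA in this value was not tested. Itgb1, which endothelium uses in matrix adhesion, stood at 591 and 630 CPM, and Itgax had 0 and 10 UMIs.

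The sequences before the start sites of Selp and Icam1 are shown because these 2 ligands of the same endothelial barcodes had unlike ratios, 6.02 against 1.1. They are the 250 bases upstream of the RefSeq start in GRCm38.p6, 5′ to 3′ on the plus strand, at chr1:164115014-164115263 for Selp and chr9:21015690-21015939 for Icam1. Capitals mark matches on either strand to the NF-kB-like motif GGNNNTTCC, the STAT-type motif TTCNNNGAA, the AP-1 motif TGANTCA or the GATA motif AGATAA.
Selp: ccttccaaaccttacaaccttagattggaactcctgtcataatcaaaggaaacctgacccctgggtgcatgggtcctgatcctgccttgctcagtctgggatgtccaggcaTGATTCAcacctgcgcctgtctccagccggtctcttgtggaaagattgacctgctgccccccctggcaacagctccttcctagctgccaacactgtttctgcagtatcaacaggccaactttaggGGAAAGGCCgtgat
Icam1: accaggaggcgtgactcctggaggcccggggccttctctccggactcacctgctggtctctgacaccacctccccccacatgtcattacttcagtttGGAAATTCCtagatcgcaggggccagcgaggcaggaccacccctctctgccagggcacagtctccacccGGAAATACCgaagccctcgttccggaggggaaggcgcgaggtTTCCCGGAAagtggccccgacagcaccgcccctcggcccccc
Icam1 had 2 matches to GGNNNTTCC, starting 153 and 84 bases before the start, and 1 to TTCNNNGAA at 42 bases. Selp had 1 match to GGNNNTTCC at 14 bases and 1 to TGANTCA at 139 bases. Of 32851 promoters of this length, 15.7% held GGNNNTTCC, 7.02% TTCNNNGAA, 6.75% TGANTCA and 9.99% AGATAA, and neither sequence held AGATAA. The promoter table had an entry for 5 of the 10 genes. In Itgax the search found 1 TGANTCA and 1 AGATAA, in Itgb1 1 GGNNNTTCC, and in Itga4 none of the 4. These are matches of letters, and binding was not measured.

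Fibroblast-like barcodes carried Vcam1 at 231 CPM (211 to 252) in sham against 347 CPM (330 to 365) in TAC, 1.51-fold higher (1.36 to 1.67) and just past the limit. Of 7 measured members 1 was called higher and 2 lower, against 9.69% and 19.2% of 10678 genes. Col1a1, a fibroblast gene, was 721 and 1270 CPM, and Dcn, another, 15992 and 13902 CPM. The 37 fibroblast markers summed to 62947 CPM in sham against 69637 CPM in TAC, with 14 called higher and 7 lower. After thinning, 17.1% of sham barcodes (12.2 to 22.8) and 27.5% of TAC barcodes (22.1 to 33.6) had a Vcam1 UMI, and unthinned 70.8% and 81%. C1q-poor barcodes had 269 and 334 CPM, a ratio of 1.24 (1.11 to 1.39) that was no call.

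Where Postn or Cthrc1, genes of activated fibroblasts, were found, Vcam1 was 360 CPM in 22 sham and 355 CPM in 157 TAC barcodes. In sham 1 of those 22 barcodes held 55 of the 96 UMIs, and without the fullest barcode of each library the levels were 164 CPM (118 to 223) and 327 CPM (308 to 348), so that 1 barcode set the sham value. These 22 barcodes are below the limit for a comparison. Without these genes Vcam1 was 212 and 325 CPM (1.53-fold, 1.33 to 1.77), and without the fullest barcodes 200 and 251 CPM, a ratio of 1.25 that is no call, since 1 TAC barcode held 88 of 364 UMIs. Barcodes with Postn or Cthrc1 made up 10.4% of the sham and 63.3% of the TAC class. Icam1 was 83 and 110 CPM in fibroblasts (1.33-fold, 1.12 to 1.59), and 69.5 and 111 CPM in the C1q-poor ones, where it passed the limit (1.6-fold, 1.3 to 1.99). Icam2 had 8 and 10 UMIs and Selp 1 and 0, under the minimum for a comparison. Itgb1 was 456 and 626 CPM (1.37-fold, 1.28 to 1.48), Itgb2 20.3 and 20.1 CPM, and Itgax and Itgal 4.39 and 1.85 CPM in TAC. The lower calls were Itga4, at 14.6 and 8.55 CPM, and Selplg, at 23.6 and 15.5 CPM. Selplg in C1q-poor fibroblasts was 6.71 and 6.32 CPM, while the C1q genes in the class summed to 2180 CPM in sham against 1330 CPM in TAC.

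**Figure D5:**
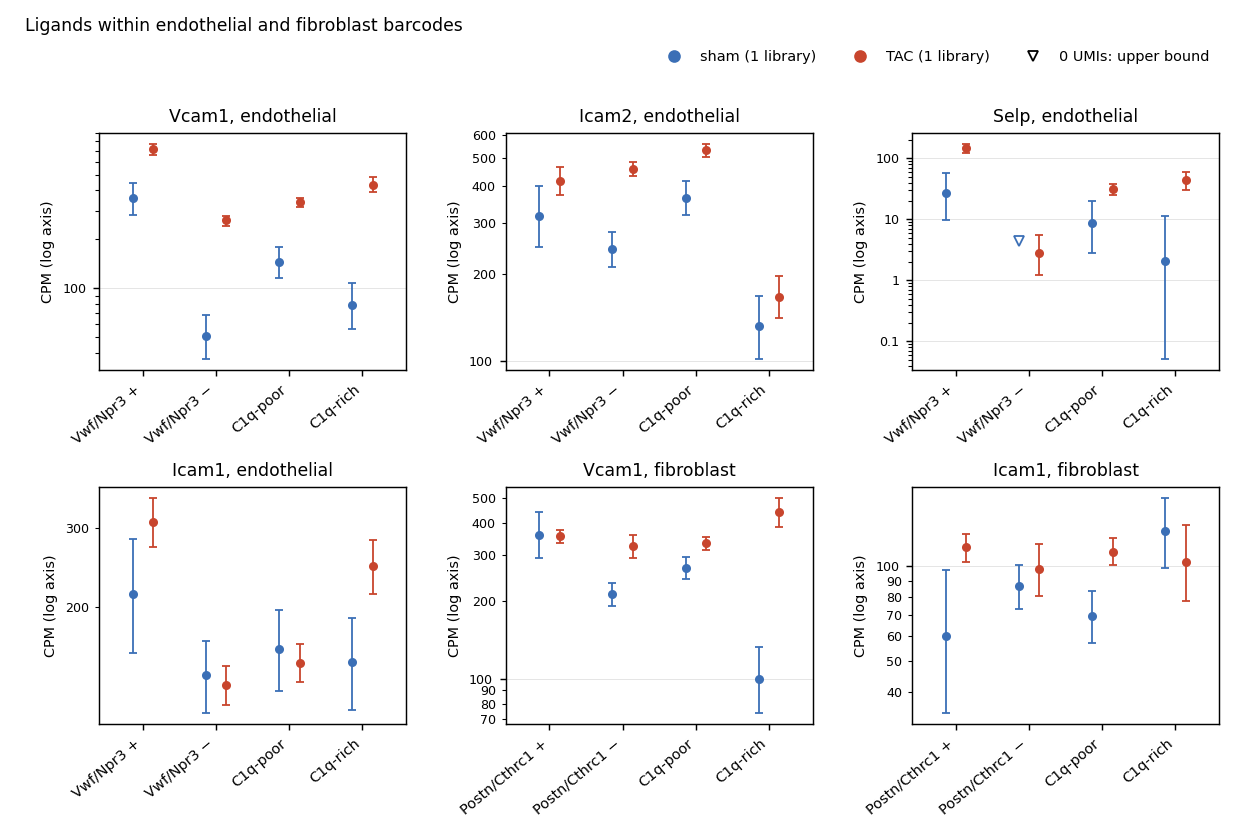
Levels in CPM (log axes, which differ between panels) of ligands in endothelial-like barcodes with and without a UMI of Vwf or Npr3, in fibroblast-like barcodes with and without a UMI of Postn or Cthrc1, and in C1q-poor and C1q-rich barcodes of each, sham in blue and TAC in red, with 95% Poisson intervals. Endothelial Vcam1 is higher in TAC in all 4 groups, which are overlapping splits of the same barcodes. Those with Vwf or Npr3 (23 in sham, 56 in TAC) and the C1q-rich ones (38 and 38) are too few for a comparison. Selp is almost confined to barcodes with Vwf or Npr3. The sham fibroblast value with Postn or Cthrc1 rests on 22 barcodes, of which 1 holds 55 of the 96 Vcam1 UMIs.

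The ligands were also seen in leukocyte barcodes. Vcam1 in macrophages was 30.1 CPM in sham against 69.3 CPM in TAC (2.3-fold, 2.11 to 2.51), with the highest TAC level, 105 CPM, in cluster 17, led by Gbp2b and Ccl8, and a thinned share of 2.2% and 5.57% (unthinned 10.6% and 23.6%). Within clusters that both libraries filled it was higher in TAC in cluster 1 (13.6 and 50.9 CPM) and cluster 4 (41.9 and 79.3 CPM), 33.8 and 26.6 CPM in cluster 0, and 33.8 and 41.4 CPM in cluster 5. In the other leukocyte classes Vcam1 went with C1q. C1q-poor TAC barcodes had 2.68 CPM in the T-like, 1.75 CPM in the NK-like and 3.4 CPM in the neutrophil-like class, and C1q-rich ones 82.3, 122 and 66.6 CPM.

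Icam1 was lower in TAC in each compared leukocyte class, by 1.29-fold in macrophages (124 and 96.4 CPM), 1.68-fold in monocyte-like, 1.29-fold in T-like, 1.21-fold in NK-like and 2.07-fold in B-like barcodes. The NK-like interval included no difference. Only the monocyte-like and B-like values were calls, and in C1q-poor monocyte-like barcodes, only 33 of them in sham, the levels were 43.7 and 46.3 CPM. In macrophage clusters 0, 1 and 4 Icam1 was 159 and 96.9, 51.5 and 25.5, and 168 and 79.3 CPM, each past 1.5-fold lower. Heat-shock genes such as Hspa1a led clusters 0 and 4, and their part was not tested.

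Selp was found in TAC neutrophil-like barcodes at 11.5 CPM (9.79 to 13.3), from 167 UMIs in 134 of 1167 barcodes. At 22.9 CPM it was higher in C1q-poor than in C1q-rich ones, at 5.99 CPM. Cluster 13, led by Stfa2l1 and G0s2, had 29.4 CPM. The platelet markers Gp9 and Ppbp were 1.03 and 2.13 CPM in TAC neutrophil-like barcodes. The whole list of platelet markers summed to 27.2 CPM in the C1q-poor and 6.9 CPM in the C1q-rich ones, above Selp in each. Among C1q-poor barcodes 11 of the 80 with Selp had a platelet marker UMI (13.8%) against 19 of the 598 without (3.18%), and among C1q-rich ones 6 of 54 (11.1%) against 31 of 435 (7.13%). The part of platelet RNA in the Selp value was not tested. In sham 0 of 19 barcodes had a Selp UMI, and a count of 0 allows a share of such barcodes of up to 15.8% (3 of 19).

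Beyond the 10 genes, 70 other adhesion genes were counted. In macrophages 13 of 55 measured were called higher in TAC and 9 lower, against 13.2% and 22.5% of all measured genes. Itgb7, the beta chain that also pairs with Itga4, was 4.89 CPM in sham against 25.8 CPM in TAC (5.28-fold, 4.3 to 6.54). F11r, which encodes a junctional adhesion molecule, was 5.58 and 15.5 CPM. Fyb, an adaptor in integrin activation, was 252 and 461 CPM, and Cytip 50.6 and 108 CPM. Thbd, the gene of thrombomodulin, was 4.98-fold lower in TAC, at 33.2 and 6.67 CPM, and Itga9 1.96-fold lower.

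In T-like barcodes 13 of 44 were called higher and 8 lower, against 19.7% and 18.9% of all genes. Of 17 measured genes of integrin activation 7 were higher and 1 lower: Rasgrp2 was 44.6 and 85.5 CPM and Apbb1ip, the gene of RIAM, 96.5 and 167 CPM, both acting through the small GTPase Rap1, while Cyth1 was 93.2 and 46.9 CPM. Itgb7 was 73.6 and 139 CPM. NK-like barcodes had 13 of 39 higher and 5 lower (24.7% and 20.5% of all genes), monocyte-like 8 and 8 of 42 (18.5% and 18.9%) and B-like 4 and 11 of 39 (14.8% and 24.3%). The monocyte-like shares lay near those of all genes.

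In endothelial-like barcodes 9 of 55 were called higher and 7 lower, near the 14.1% and 17% of all genes, and of 17 measured genes of integrin activation 0 were called higher and 2 lower. Itga1, a collagen-binding alpha chain, was 408 and 698 CPM (1.71-fold), Esam, a junction gene, 297 and 563 CPM (1.89-fold) and Cd47 288 and 477 CPM (1.66-fold). Cd44 was 1.87-fold lower. In fibroblast-like barcodes 5 of 49 were higher and 9 lower, also near the 9.69% and 19.2% of all genes, with Itgb5, a partner of the alpha-v chain, at 191 and 374 CPM (1.96-fold) and Itga8 2.49-fold lower.

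The genes most alike were found by Pearson correlation of log2(CPM + 1) over 14 points, the 7 classes in each library, among 4892 genes with at least 50 CPM in 1 or more of them. The points share libraries and the macrophage RNA described above, so the values are descriptions. Itga4 was closest to Ptprc (r = 0.985), Selplg to Slc9a3r1 (0.992), Itgb2 to the actin-capping gene Capzb (0.987), Icam2 to Pecam1 (0.955), Itgal to Sema4d (0.953), Vcam1 to Tbrg1 (0.957) and Itgb1 to Sept4 (0.941). Icam1 (Rabep1, 0.931), Itgax (Plekhj1, 0.912) and Selp (Pparg, 0.897) had looser neighbours.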

How the data were processed

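Single-cell UMI counts of CD45-sorted heart cells were deposited as 1 gene-by-barcode count matrix per group. The counts were made by the authors with Cell Ranger 3.0 on mm10, per the submitters' processing notes, and whether introns were counted is not stated there. Gene and barcode names came from the deposited lists.

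Barcodes entered if they had 300 or more genes and no more than 10% of UMIs from mitochondrial genes. Both libraries were clustered together in scanpy 1.11.5 without integration (2000 variable genes without any adhesion gene, 30 principal components, 15 neighbours, Leiden resolution 1). A cluster was named from marker lists: at least 3 markers of 1 class among its 10 leading genes, that class first, or else at least 50% of a class's markers found in at least 50% of its barcodes, with no other class ahead and a median depth of at most 3 times that of all kept barcodes. These naming limits were set after the clusters were seen. No doublet caller was run, and leaving out the deepest 10% of barcodes was an alternative.

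UMIs were summed per class and library, and ratios were computed with 0.5 UMI added for the log2 value. Classes with at least 50 barcodes in each library were compared. No p-value was computed, since each group is 1 library. The interval method was tested on simulated Poisson counts, the model it assumes. UMIs gathered in single barcodes were not simulated, so this does not show how the intervals hold for such genes. Shares used barcodes thinned to 1000 UMIs, with exact Clopper-Pearson intervals. Levels of all 10 genes were computed in every compared class, and not every level is reported here. Of the other adhesion lists, up to 2 genes with the highest and 2 with the lowest ratio per list and class qualified, with at least 50 UMIs. Not every gene that qualified is reported here. For each of the 10 genes the 3 most alike were ranked. The genes and lists were chosen with earlier results of these data known. Positions are from GENCODE on GRCm38, and promoter sequences from RefSeq on GRCm38.p6. Opposite-strand genes overlap Itga4, Icam1, Vcam1 and Selp, and strand use in counting is not stated.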

Additional observations from a re-analysis of the deposited data

Results flagged for a closer look

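Itga4 went in opposite directions between classes under the same contrast. Its log2 ratio of TAC over sham was 0.77 in T-like and 0.72 in NK-like barcodes and -0.78 in fibroblast-like barcodes, each interval excluding no difference. Per marker UMI of the class, the ratio was 0.969 in T-like and 0.63 in NK-like barcodes (0.511 to 0.782), so that under this scaling the NK-like ratio was lower in TAC. This scaling was not computed for fibroblast-like barcodes. The difference between classes was not tested. The fibroblast value rested on 31 and 37 UMIs, in 15 of 212 sham and 16 of 248 TAC barcodes. C1q-poor fibroblasts held 18 and 15 of these UMIs, in 4 of 183 and 5 of 226 barcodes. The C1q genes in fibroblasts stood at 13.3% of the macrophage level in sham and 6.61% in TAC, and macrophage Itga4 was 76.1 and 73.1 CPM. The part of macrophage RNA in the fibroblast Itga4 value was not tested.

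Selp in TAC neutrophil-like barcodes, which entered no comparison, stood at 11.5 CPM, where the 19 sham barcodes had 0 UMIs.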

How the results depend on the processing

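For 36 log2 ratios, 495 values were computed under other settings. Of these, 425 stayed within the counting interval of the main value, 67 moved outside it and 3 reversed the direction of a call. Some settings could not change a given ratio, such as dropping the minimum of UMIs, and their values count among the 425. The reversed values were Itgax in macrophages (-2.53 with the mitochondrial limit at 5%) and Itgax in monocyte-like barcodes (-0.83 with at least 500 genes per barcode and -0.96 at Leiden resolution 2). Of the leukocyte pairs, 12 of 30 were higher in TAC. This became 0 of 6 at 5% mitochondrial UMIs, 7 of 23 with each library clustered alone, 3 of 18 with classes gated on marker UMIs, 2 of 6 without C1q-rich barcodes, 6 of 30 at 2-fold and, in a setting added after seeing the data, 6 of 12 in C1q-rich barcodes only. The 0 lower pairs became 1 at 5%, at 500 genes, at resolution 2, with libraries alone, with gating and, also added after seeing the data, with the fullest barcode of each gene, class and library left out. Of the ligand pairs, 4 of 6 were higher. This became 2 with the limit at 25% and 2 at 2-fold, and the 0 lower became 2 of 8 with no minimum of UMIs. Endothelial Vcam1 and Selp kept their calls in 16 of 16 settings, Icam2 in 13 of 16 and fibroblast Vcam1 in 9 of 16. Dropping the minimum of UMIs and changing only the macrophage class could not alter these values, so those settings count as kept. Itgal in macrophages kept its call in 17 of 18, the exception being 5% mitochondrial UMIs with a log2 ratio of 0.40. Dropping the minimum of UMIs and the C1q filters on other classes could not alter this macrophage value. At 5%, endothelium and fibroblasts had under 50 barcodes and gave no value. No paired analysis was possible because each group has 1 library. The 19 sham neutrophil-like barcodes and the 6 sham Selp UMIs limit what depth can show.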

Other observations

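Several unnamed clusters entered no comparison of leukocyte classes. Barcodes led by Hmga2 and Gpnmb, 177 in sham and 94 in TAC, had Itga4 at 122 and 195 CPM, Selplg at 26.4 and 33 CPM and Itgal at 2.56 and 6.55 CPM. Barcodes with Csf3r among their leading genes and macrophage markers, 159 and 12, had Itgal at 56 and 60.4 CPM and Selplg at 191 and 224 CPM. Barcodes led by Pla2g2d and Clec10a, 751 and 26, had Vcam1 at 80.7 and 156 CPM and Itgal at 3.25 and 0 CPM, and the TAC values of the last 2 groups rest on few barcodes.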
